A study of Mus musculus with 11 samples.

Results

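The BCL2 family sets whether a cell keeps its mitochondria intact or dies by apoptosis, and 10 of its genes were examined in Treg cells that carry the T cell receptor of a clone from visceral adipose tissue (VAT). They were chosen by name, with earlier results of these data known. The survival genes were Bcl2, Bcl2l1 (which encodes BCL-XL), Mcl1, Bcl2a1b and Bcl2a1d (copies of the gene for A1). The BH3-only death genes were Bcl2l11 (BIM), Bbc3 (PUMA) and Pmaip1 (NOXA), and the pore-forming effectors were Bax and Bak1. All 10 were among the 52997 rows of the count table, and all 10 were among the 12932 genes that passed the filter on low counts.

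The cells were double-sorted clonotype+ Treg cells, 1000 per library, from pooled spleen and lymph nodes (Spl/LN) or from VAT of recipient mice. The donors were male vTreg53 Tg+ mice on the C57BL/6 background, which carry rearranged Tcra and Tcrb transgenes of the clone vTreg53 and a Foxp3-GFP reporter, and the recipients were male CD45.1 B6 mice with their own lymphocytes. Age in the sample titles is 15 weeks. Recipients received either the surrogate agonist peptide Fat1562 in complete and then incomplete Freund's adjuvant (adjuvant/Fat1562) or the control treatment, which the paper calls adjuvant alone and the sample labels call unimmunized and PBS. The name adjuvant alone is used here, and an effect of the peptide means the difference between these 2 treatments. If the labels are right and the controls had no adjuvant, effects of peptide and adjuvant cannot be told apart in these comparisons. Mice were primed under the skin 6 weeks after the transfer and boosted in the peritoneum 1 week later, and cells were sorted after 1 more week. There were 3 libraries of Spl/LN with adjuvant alone, 3 of Spl/LN with adjuvant/Fat1562, 2 of VAT with adjuvant alone and 3 of VAT with adjuvant/Fat1562. All groups hold transferred cells sorted for the clonotype. The labels do not say whether mice were pooled, or whether a Spl/LN and a VAT library came from the same mouse, so p-values measure the spread between libraries.

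Total counts per library ran from 4490242 to 6570057. Foxp3, the lineage factor of Treg cells, was at 6746 to 10260 normalized counts (counts scaled to a common library size), and Cd4 at 2114 to 3518. Of the marker genes of other cells, 3 of 8 for B cells and plasma cells, 3 of 8 for monocytes and macrophages, 6 of 6 for neutrophils, 3 of 6 for dendritic cells, 4 of 6 for NK and CD8 T cells and 7 of 9 for adipocytes and stroma were at 10 counts or fewer in every library, and no marker was at 0 in all of them. The dendritic cell genes summed to 109.8 to 225.9 normalized counts in VAT and 48.8 to 106.1 in Spl/LN. Of 3 tested, Xcr1 was called higher (an adjusted p under 0.05 by edgeR) in VAT under both treatments (log2 2.28 and 1.91) and Zbtb46 with adjuvant/Fat1562 (1.61). The NK and CD8 T cell genes summed to 173.6 to 194.6 in VAT with adjuvant alone and 97.2 to 152.9 elsewhere, and Klrb1c, 1 of 2 tested, was called higher with the peptide in Spl/LN (3.43) and lower in VAT with adjuvant/Fat1562 (-4.12). Cd8b1 made up most of each of these sums, with group means of 182.4 in VAT with adjuvant alone and 90.0 to 114.7 elsewhere. The monocyte and macrophage genes summed to 26.2 to 85.4 in VAT and 37.5 to 139.9 in Spl/LN, and Itgam, 1 of 3 tested, was called lower in VAT with adjuvant alone (-3.14) and higher with the peptide in VAT (3.23). The 6 neutrophil genes, of which 0 passed the filter, summed to 2.08 to 14.2. The 9 adipocyte and stroma genes summed to 255.7 to 304.8 in VAT with adjuvant alone and to 445.7 to 619.2 elsewhere, and Pecam1, 1 of 2 tested, was called lower in VAT with adjuvant alone (-0.89) and higher with the peptide in VAT (1.00). Pecam1 made up most of each of these sums, with group means of 263.7 in VAT with adjuvant alone and 490.7 to 528.5 elsewhere. The 8 B cell and plasma cell genes summed to 1090 to 1873 in 10 libraries and to 3482 in the second library of VAT with adjuvant alone, where Jchain, a plasma cell gene chosen after its values were seen, was at 1731, beside 525 or less in the other 10. Xbp1, at 925.8 to 1774 normalized counts over all libraries, made up most of the sum in those other 10. Of the 5 tested, Xbp1 was called higher in VAT under both treatments (0.69 and 0.54), Cd79b lower in VAT with adjuvant/Fat1562 (-1.18) and Jchain lower with the peptide in VAT (-6.17).

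The summed level of 14 immediate early and dissociation genes was 6951 to 8921 in Spl/LN, 101400 to 120200 in VAT with adjuvant alone and 43020 to 53680 in VAT with adjuvant/Fat1562. Of these 14 genes, 13 were called higher in VAT under each treatment (with adjuvant/Fat1562 the remaining 1 was called lower), 10 were called lower after adjuvant/Fat1562 in VAT, and 3 were called lower and 1 higher after it in Spl/LN. Without the second library of VAT with adjuvant alone, the same 5 members were called between the tissues with adjuvant alone and Bcl2l11 was called for the peptide in VAT. The paper's methods describe mincing of VAT and its digestion with collagenase, a step given for VAT only. In the comparisons between the tissues, tissue and digestion therefore cannot be told apart. The part of these levels in the results was not tested, and in bulk libraries fewer cells with a transcript cannot be told apart from less RNA per cell.

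As background, survival proteins of this family hold the effectors BAX and BAK in check at the mitochondrial membrane. BH3-only proteins bind the survival proteins, with preferences: BIM and PUMA bind all of them, whereas NOXA binds mainly MCL1 and A1. In Treg cells, interleukin-2 signals support MCL1, and the balance of MCL1 and BIM is known to set how many of these cells survive.

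A limit comes from the sequences. Mice have several nearly identical copies of the A1 gene on chromosome 9, and the read length was 38 bases. The coding sequences of Bcl2a1b (chr9:89199209-89207827, plus strand, GRCm38, protein-coding) and Bcl2a1d (chr9:88723285-88731914, minus strand) are 516 bases long each and differ at 6 positions, written here as the Bcl2a1b base, its position counted from 1 at the start codon and the Bcl2a1d base: G4T, T48C, A94C, G312A, C381G and T490A. The stretches that hold 5 of these 6 are shown in the 5′ to 3′ direction with another copy, Bcl2a1a, and capitals mark the bases at which the copies differ.
Bcl2a1b, coding bases 1 to 100, chr9:89199360-89199459, plus strand: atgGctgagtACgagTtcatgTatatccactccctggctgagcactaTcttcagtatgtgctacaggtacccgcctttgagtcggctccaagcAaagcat
Bcl2a1d, coding bases 1 to 100, chr9:88731620-88731719, minus strand: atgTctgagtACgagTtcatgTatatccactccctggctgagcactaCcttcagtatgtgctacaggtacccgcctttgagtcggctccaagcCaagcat
Bcl2a1a, coding bases 1 to 100, chr9:88957051-88957150, plus strand: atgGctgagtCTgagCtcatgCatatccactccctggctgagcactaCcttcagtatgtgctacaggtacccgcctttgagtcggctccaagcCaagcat
Bcl2a1b, coding bases 281 to 400, chr9:89199640-89199759, plus strand: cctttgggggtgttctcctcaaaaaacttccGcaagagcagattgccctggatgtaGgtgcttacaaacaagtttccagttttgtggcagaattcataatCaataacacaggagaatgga
Bcl2a1d, coding bases 281 to 400, chr9:88731320-88731439, minus strand: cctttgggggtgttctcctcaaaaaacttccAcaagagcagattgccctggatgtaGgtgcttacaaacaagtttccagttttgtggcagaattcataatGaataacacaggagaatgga
Bcl2a1a, coding bases 281 to 400, chr9:88957331-88957450, plus strand: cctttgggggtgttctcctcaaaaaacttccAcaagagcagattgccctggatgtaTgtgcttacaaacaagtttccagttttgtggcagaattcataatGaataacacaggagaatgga

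Between positions 94 and 312, Bcl2a1b and Bcl2a1d are the same for 217 bases. Of all 38-base stretches in the annotated transcripts, 84.5% of those of Bcl2a1b and 85.6% of those of Bcl2a1d also occur in another gene. How reads that match several copies were counted is not given in the sources used here. The split of counts between Bcl2a1b and Bcl2a1d is therefore uncertain, and a sum over the copies is given beside each. The sum cannot restore reads that may have been left out of the counts for matching several copies. The levels of both copies beside other genes are uncertain too. Bcl2a1a had 2 counts at most in a library and Bcl2a1c had 8 at most. The gene model Gm29094, which overlaps 49.1% of the exon length of Bcl2a1b on the same strand, had 5 at most. For the other members the share of such stretches was 19.2% in Bak1, where the opposite-strand gene Ggnbp1 overlaps, 10.1% in Bax, which overlaps the gene model Gm45808, 5.69% in Bcl2, mainly where the antisense gene D630008O14Rik overlaps, and under 0.3% in the rest. Whether strand was used in counting is not given in the sources used here, so reads of Bak1 and Bcl2 cannot be told apart from those of their antisense partners in the overlaps.

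The design asks what tissue and what the peptide each change. In VAT against Spl/LN with adjuvant alone, Bcl2l1, Bcl2a1b, Bcl2a1d and Pmaip1 rose and Bcl2 fell. That is 4 of 10 members called higher and 1 of 10 called lower by edgeR's quasi-likelihood test (Benjamini-Hochberg adjusted p under 0.05 over all tested genes), where 9.09% of all tested genes were called higher and 7.17% lower. Bcl2a1b and Bcl2a1d share most of their sequence, so 2 of the 4 calls, under either treatment, may be 1 signal. The sum over the A1 copies was also called higher in VAT under both treatments. With adjuvant/Fat1562, the same comparison called the same 4 members higher (background 8.26%) and Bcl2l11 lower (background 6.73%). After adjuvant/Fat1562 against adjuvant alone in VAT, Bcl2l11 alone was called higher (background 4.32%) and 0 of 10 members were called lower (background 3.97%). DESeq2 called 1 higher and 0 lower there, and at an unadjusted p under 0.05 the counts were 3 and 0. The peptide in Spl/LN raised Bcl2l11, Pmaip1 and Bcl2a1d, 3 of 10 members (background 2.58%), and lowered Bcl2, 1 of 10 (background 1.40%). In the interaction, which asks whether the peptide's effect differs between the tissues, 0 of 10 members were called higher by edgeR or DESeq2 (background 1.70%; 1 member had an unadjusted p under 0.05), and Pmaip1 was called lower (background 2.02%). The median log2 fold change of the 10 members was 0.11, 0.16, 0.10, 0.27 and -0.16 in these 5 comparisons in that order, beside -0.03, -0.01, 0.01, 0.00 and 0.01 over all tested genes. The comparisons share libraries and are not independent of each other. Because the members were chosen with earlier results of these data known, the shares and medians are a description and not a test of the family.

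**Figure D1:**
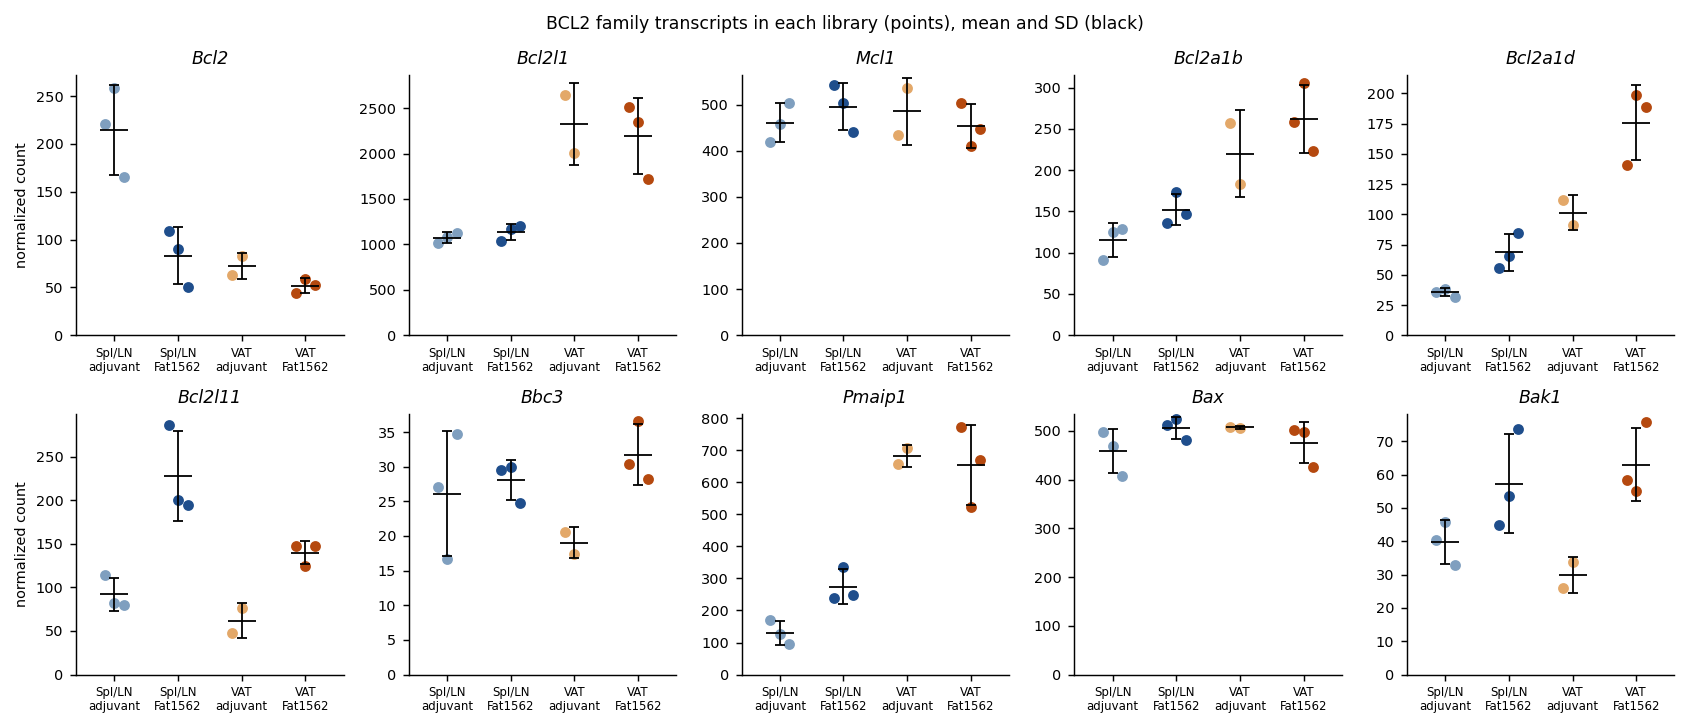
Normalized counts (y axis, linear, from 0) of the 10 BCL2 family transcripts in each library (points), by group, with the group mean and SD in black (n = 3, 3, 2 and 3). Bcl2l1 and Pmaip1 were higher in every VAT library than in every Spl/LN library, Bcl2l11 was higher with adjuvant/Fat1562 in both tissues, and Mcl1 and Bax lay in overlapping ranges.

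Bcl2 (chr1:106538178-106714274, minus strand), the founding survival gene, was high in 1 group. Its normalized counts with adjuvant alone were 220.9, 258.3 and 165.3 in Spl/LN and 62.9 and 82.3 in VAT. With the peptide they were 108.7, 89.8 and 50.4 in Spl/LN and 43.8, 59.0 and 52.9 in VAT. Every library of Spl/LN with adjuvant alone lay above all 8 others. Bcl2 was 2.96-fold lower in VAT than in Spl/LN with adjuvant alone (log2 fold change -1.57, SE 0.32, adjusted p = 0.00217). In Spl/LN it was 2.60-fold lower with adjuvant/Fat1562 (log2 -1.38, SE 0.27, adjusted p = 0.00720). With adjuvant/Fat1562 the tissues overlapped, and the difference of -0.67 (log2, SE 0.29) missed the threshold at an adjusted p of 0.138, but passed it without the Spl/LN library 3 (log2 -0.93, adjusted p = 0.0342). In VAT the 3 libraries with adjuvant/Fat1562 lay below the 2 with adjuvant alone, without passing the test (log2 -0.48, SE 0.32, adjusted p = 0.445). The peptide's effects on Bcl2 in the tissues were not shown to differ (interaction log2 0.90, SE 0.42, adjusted p = 0.292).

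Bcl2l1 (chr2:152780668-152831728, minus strand) followed the tissue. Its normalized counts in Spl/LN were 1014.7, 1077.9 and 1130.4 with adjuvant alone and 1038.3, 1173.4 and 1206.4 with adjuvant/Fat1562. The VAT libraries were at 2648.1 and 2006.8 with adjuvant alone and 2514.9, 2350.5 and 1721.0 with adjuvant/Fat1562. All 5 VAT libraries lay above all 6 Spl/LN libraries, and the treatments overlapped within each tissue. The rise in VAT was 2.17-fold with adjuvant alone (log2 1.12, SE 0.14, adjusted p = 2.59e-05) and 1.93-fold with adjuvant/Fat1562 (log2 0.95, SE 0.13, adjusted p = 6.64e-05). The peptide's log2 effect had a 95% interval from -0.39 to 0.22 in VAT and from -0.19 to 0.36 in Spl/LN. The immediate early and dissociation genes rose in the same tissue comparisons.

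Mcl1 (chr3:95658788-95663176, plus strand) encodes a short-lived survival protein. Its normalized counts in Spl/LN were 419.6, 458.2 and 504.0 with adjuvant alone and 541.5, 503.3 and 440.3 with adjuvant/Fat1562. The VAT libraries were at 433.9 and 536.3 with adjuvant alone and 503.4, 410.1 and 446.6 with adjuvant/Fat1562. The 4 groups overlapped. The 95% intervals of the log2 differences were -0.24 to 0.39 and -0.41 to 0.15 between the tissues, with adjuvant alone and with adjuvant/Fat1562, and -0.41 to 0.22 and -0.18 to 0.38 for the peptide, in VAT and in Spl/LN. Levels of the protein were not measured.

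The A1 copies were higher in VAT. For Bcl2a1b the normalized counts in Spl/LN were 91.6, 125.0 and 128.7 with adjuvant alone and 136.3, 173.1 and 147.3 with adjuvant/Fat1562, and in VAT 257.1 and 183.3 and then 258.5, 305.3 and 223.3. For Bcl2a1d they were 35.7, 38.5 and 32.0 and then 55.3, 65.2 and 84.9 in Spl/LN, and 111.7 and 91.0 and then 140.5, 198.4 and 188.7 in VAT. For each copy every VAT library lay above every Spl/LN library. Bcl2a1b was 1.92-fold higher in VAT with adjuvant alone (log2 0.94, SE 0.22, adjusted p = 0.00662) and 1.72-fold higher with adjuvant/Fat1562 (log2 0.79, SE 0.20, adjusted p = 0.0109). The first of these calls was lost without the first VAT library with adjuvant alone (log2 0.67, adjusted p = 0.150), and the second without the first Spl/LN library (log2 0.71, adjusted p = 0.0549) or the second VAT library (log2 0.66, adjusted p = 0.0712) with adjuvant/Fat1562. Bcl2a1d was 2.87-fold higher (log2 1.52, SE 0.28, adjusted p = 0.000837) and 2.56-fold higher (log2 1.36, SE 0.24, adjusted p = 0.000674), and kept both calls under every alternative tried.

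Counts of Bcl2a1a, Bcl2a1b, Bcl2a1c, Bcl2a1d and the overlapping gene model Gm29094 were also added up, an alternative chosen after seeing the data. The sum rose in VAT by 1.11 (log2, SE 0.19, adjusted p = 0.000478) with adjuvant alone and by 0.99 (SE 0.17, adjusted p = 0.000494) with adjuvant/Fat1562. With the peptide in Spl/LN, Bcl2a1d rose 1.94-fold (log2 0.96, SE 0.26, adjusted p = 0.0453), whereas Bcl2a1b did not pass the test (log2 0.40, adjusted p = 0.306) and neither did the sum (log2 0.57, SE 0.17, adjusted p = 0.0800). The Bcl2a1d call was lost under 14 of 21 alternatives, with adjusted p-values from 0.0214 to 0.176 over all of them. In VAT the peptide's effect on Bcl2a1d was 0.79 (log2, SE 0.27, adjusted p = 0.0804), and on the sum 0.45 (SE 0.19, adjusted p = 0.172).

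The gene starts of the A1 copies are alike as well. The RefSeq promoter windows (GRCm38.p6, from 250 bases before to 50 after the start) were searched on both strands for TGANTCA. This is a loose form of the AP-1 motif, in which N is any base. Each of these copies holds 1 match, with A as the middle base. It is shown in capitals. Any part of AP-1 factors in the levels of these copies was not tested.
Bcl2a1b, chr9:89199049-89199175, plus strand: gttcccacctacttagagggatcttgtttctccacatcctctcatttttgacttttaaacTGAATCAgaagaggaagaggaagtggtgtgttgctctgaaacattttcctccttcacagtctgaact
Bcl2a1d, chr9:88731898-88732024, minus strand: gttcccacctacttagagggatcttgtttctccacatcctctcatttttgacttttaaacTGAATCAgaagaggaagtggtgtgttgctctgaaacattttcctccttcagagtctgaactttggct

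The match lies 164 bases before the start in Bcl2a1b and 114 in Bcl2a1d. The loose pattern, with any middle base, is in 7.81% of all 32851 promoter windows. It was found in 2 of the 14 windows that the table holds for 9 of the members, which were these 2. No window was used for Pmaip1. The windows of the 2 copies are nearly alike, so their matches are not independent. A match is a description of letters and not of binding.

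Among the death genes, Bcl2l11 (chr2:128126038-128162547, plus strand) rose with the peptide in both tissues. Its normalized counts in Spl/LN were 113.8, 82.3 and 80.3 with adjuvant alone and 287.0, 200.9 and 194.5 with adjuvant/Fat1562. The VAT libraries were at 47.7 and 76.1 with adjuvant alone and 147.2, 125.2 and 147.7 with adjuvant/Fat1562. The treatments did not overlap in either tissue. Bcl2l11 rose 2.47-fold in Spl/LN (log2 1.30, SE 0.23, adjusted p = 0.00284) and 2.27-fold in VAT (log2 1.18, SE 0.28, adjusted p = 0.0120). The VAT call was lost without the first VAT library with adjuvant alone, which leaves 1 library in that group (log2 0.88, adjusted p = 0.179). The effects were not shown to differ between the tissues (interaction log2 -0.12, 95% interval -0.87 to 0.64, adjusted p = 0.921).

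Bcl2l11 was also lower in VAT than in Spl/LN. With adjuvant/Fat1562 the fall was 1.62-fold (log2 -0.70, SE 0.22, adjusted p = 0.0429), a call lost under 8 of 20 alternatives, with adjusted p-values from 0.0106 to 0.238. These included leaving out any of the 6 libraries compared, and the largest of the p-values came without the first Spl/LN library. With adjuvant alone the tissues did not overlap, and the difference of -0.58 (log2, SE 0.28) had an adjusted p of 0.180.

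Bcl2l11 is a known target of FOXO factors, and its RefSeq promoter window holds a match to the FOXO motif TGTTTAC on the opposite strand, in capitals, 227 bases before the start.
Bcl2l11, chr2:128125791-128125877, plus strand: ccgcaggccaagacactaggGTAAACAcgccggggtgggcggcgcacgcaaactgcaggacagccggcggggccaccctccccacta

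The motif is in 3.65% of all promoter windows and in 2 of the 14 members' windows, those of Bcl2l11 and Bbc3. The NF-κB motif GGNNTTTCC, in 5.82% of all windows, was in 3 of the 14, those of Bcl2l1, Mcl1 and Bbc3. The CRE motif TGACGTCA, in 1.79% of all windows, was in 0 of the 14.

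Pmaip1 (chromosome 18) had the largest tissue difference of the 10 members with adjuvant alone. Its normalized counts in Spl/LN were 168.8, 128.1 and 94.0 with adjuvant alone and 239.3, 336.6 and 248.2 with adjuvant/Fat1562. The VAT libraries were at 657.4 and 705.9 with adjuvant alone and 772.0, 523.0 and 669.1 with adjuvant/Fat1562. The Spl/LN groups did not overlap with each other or with VAT, and within VAT the treatments overlapped. Pmaip1 was 5.23-fold higher in VAT with adjuvant alone (log2 2.39, SE 0.22, adjusted p = 3.75e-07) and 2.39-fold higher with adjuvant/Fat1562 (log2 1.26, SE 0.19, adjusted p = 0.000163). The peptide raised it 2.10-fold in Spl/LN (log2 1.07, SE 0.20, adjusted p = 0.00554). In VAT its effect was -0.06 (log2, 95% interval -0.49 to 0.38, adjusted p = 0.919). The immediate early and dissociation genes were called higher in VAT in the same comparisons. The peptide's effect on Pmaip1 differed between the tissues by -1.13 (log2, SE 0.29, adjusted p = 0.0365). That call was lost under 7 of 19 alternatives (adjusted p from 0.000120 to 0.122), among them leaving out either VAT library with adjuvant alone, the second library of any other group or VAT library 3 with adjuvant/Fat1562.

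Bbc3 (chr7:16308393-16318205, plus strand) was low throughout. Its normalized counts in Spl/LN were 27.0, 16.7 and 34.7 with adjuvant alone and 29.6, 29.9 and 24.8 with adjuvant/Fat1562, and in VAT 20.6 and 17.5 and then 30.3, 36.6 and 28.3. The VAT libraries with adjuvant/Fat1562 lay above those with adjuvant alone, but the difference of 0.73 (log2, 95% interval -0.26 to 1.72) had an adjusted p of 0.415.

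The effectors Bax and Bak1 were called in 0 of the 5 comparisons by edgeR or DESeq2, and 1 of their 10 differences, that of Bak1 with the peptide in VAT, had an unadjusted p under 0.05. Bax (chr7:45461697-45466898, minus strand) was at 497.7, 469.7 and 408.1 normalized counts in Spl/LN with adjuvant alone and 512.9, 524.7 and 481.1 with adjuvant/Fat1562, and in VAT at 508.8 and 505.1 and then 502.3, 496.6 and 426.6. The 95% intervals of its log2 differences were -0.13 to 0.43 and -0.34 to 0.16 between the tissues, with adjuvant alone and with adjuvant/Fat1562, and -0.37 to 0.19 and -0.11 to 0.39 for the peptide, in VAT and in Spl/LN. Bak1 (chr17:27019810-27029009, minus strand) was at 40.5, 45.8 and 32.9 and then 44.8, 53.4 and 73.7 in Spl/LN, and at 26.0 and 33.7 and then 58.4, 54.9 and 75.7 in VAT. In VAT the treatments did not overlap, with a difference of 1.08 (log2, SE 0.37, adjusted p = 0.0864), and in Spl/LN they overlapped, with a difference of 0.53 (adjusted p = 0.391).

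**Figure D2:**
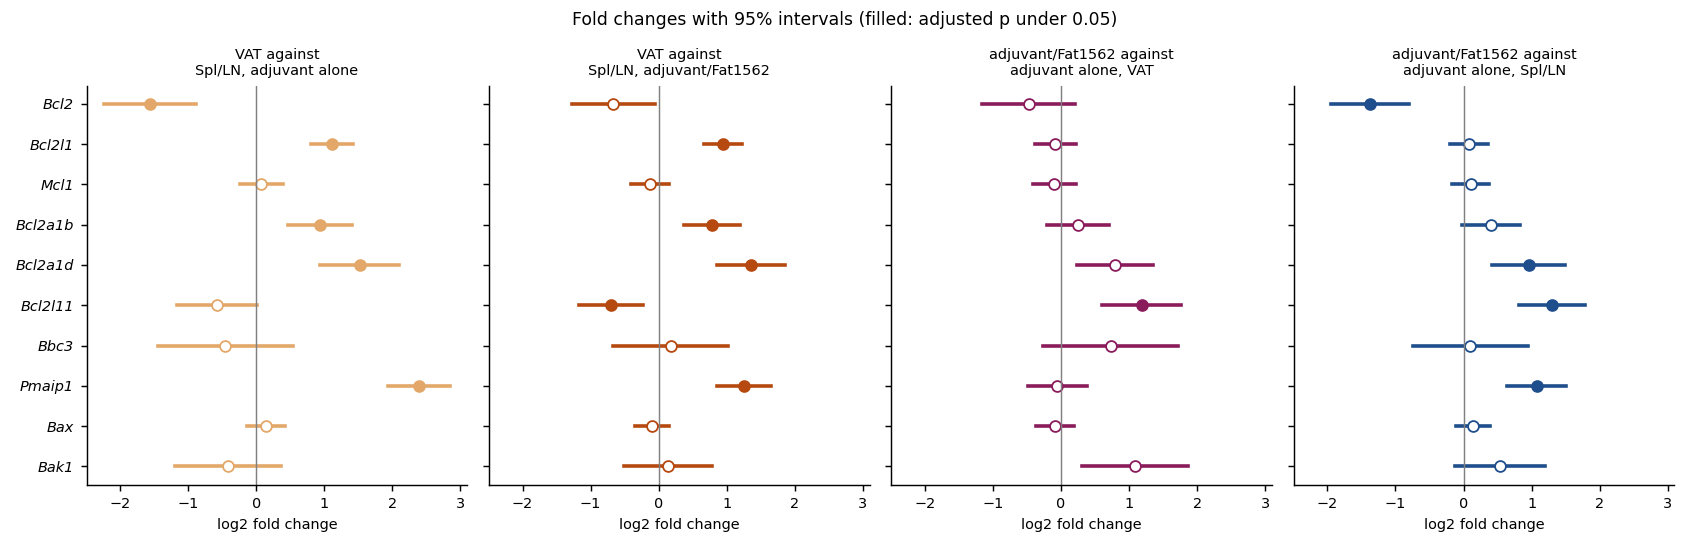
Log2 fold changes (x axis) of the 10 members in the 4 pairwise comparisons, with 95% intervals as lines and filled points where the adjusted p was under 0.05. Pmaip1 is the farthest to the right between the tissues with adjuvant alone, at 2.39, and Bcl2l11 is filled on the right for the peptide in both tissues.

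Ratios of counts within a library do not depend on how libraries were scaled, and are given here without a test. Bcl2 fell and Bcl2l11 rose with the peptide in Spl/LN. Their ratio, Bcl2/Bcl2l11, was 1.94, 3.14 and 2.06 in Spl/LN with adjuvant alone and 1.32 and 1.08 in VAT. With adjuvant/Fat1562 it was 0.379, 0.447 and 0.259 in Spl/LN and 0.298, 0.471 and 0.358 in VAT. Bcl2 counts thus exceeded Bcl2l11 counts in all 5 libraries with adjuvant alone and in 0 of 6 with adjuvant/Fat1562. Levels of Bcl2l11 alone did not overlap between the treatments in either tissue, so the ratio is not separate support. Bcl2l1/Bcl2l11 was 8.91 to 14.1 and then 3.62 to 6.20 in Spl/LN, and 26.4 to 55.5 and then 11.7 to 18.8 in VAT, so that it stayed above 1 in every library and was lower with the peptide in both tissues. Mcl1/Pmaip1, a survival gene over the gene of the BH3-only protein that binds it, was 2.49, 3.58 and 5.36 and then 2.26, 1.50 and 1.77 in Spl/LN. In VAT it was 0.660 and 0.760 and then 0.652, 0.784 and 0.668, below 1 in all 5 libraries, and in VAT the treatments overlapped. Bcl2l1/Bcl2 was 4.17 to 6.84 and then 9.55 to 23.9 in Spl/LN, and 24.4 to 42.1 and then 32.5 to 57.4 in VAT. Genes differ in transcript length, so a ratio of 1 in counts is not a ratio of 1 in transcripts.

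**Figure D3:**
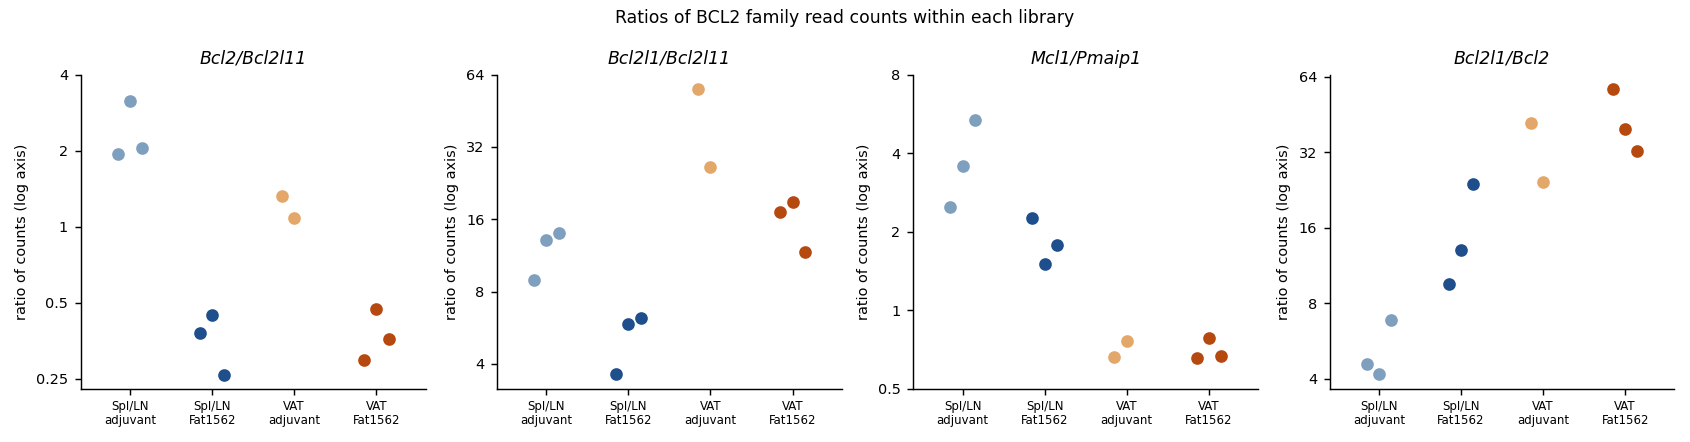
Ratios of read counts of 2 members within each library (points; y axis on a log scale), by group. Bcl2/Bcl2l11 separates the treatments, with all libraries with adjuvant alone above 1 and all with adjuvant/Fat1562 below 0.5, and Mcl1/Pmaip1 separates the tissues.

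The members were also compared on a scale per transcript length (CPM, the count scaled to library size, per kb of exons). In Spl/LN with adjuvant alone the mean levels were 54.5 ± 5.45 (SD, n = 3) for Bax and 43.9 ± 2.37 for Bcl2l1, whose ranges did not overlap. Bcl2a1b at 26.4 ± 4.68 and Mcl1 at 25.3 ± 2.32 followed and overlapped, as did Pmaip1 at 8.94 ± 2.57 and Bcl2a1d at 7.69 ± 0.716. The levels and places of Bcl2a1b and Bcl2a1d are uncertain in every group. Most of their sequence is shared with other genes, and how such reads were counted is not given. Bcl2 was at 4.40 ± 0.958, Bak1 at 3.09 ± 0.507, Bbc3 at 2.30 ± 0.798 and Bcl2l11 at 2.15 ± 0.439, each overlapping the next. In VAT with adjuvant alone the order began with Bcl2l1 at 95.1 ± 18.5 (SD, n = 2), above Bax at 60.3 ± 0.309, and Pmaip1 at 46.8 ± 2.35 lay above Mcl1 at 26.6 ± 3.97 without overlap. Bcl2 at 1.49 ± 0.281 and Bcl2l11 at 1.44 ± 0.468 had the lowest means and overlapped each other and Bbc3 at 1.68 ± 0.197. With adjuvant/Fat1562, Bcl2 had the lowest mean in Spl/LN at 1.70 ± 0.608 and in VAT at 1.06 ± 0.156. In Spl/LN its range (1.03 to 2.22) overlapped that of Bbc3 (2.19 to 2.64), and in VAT it overlapped no other member. Bcl2l11 was at 5.31 ± 1.21 in Spl/LN and 3.27 ± 0.300 in VAT.

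**Figure D4:**
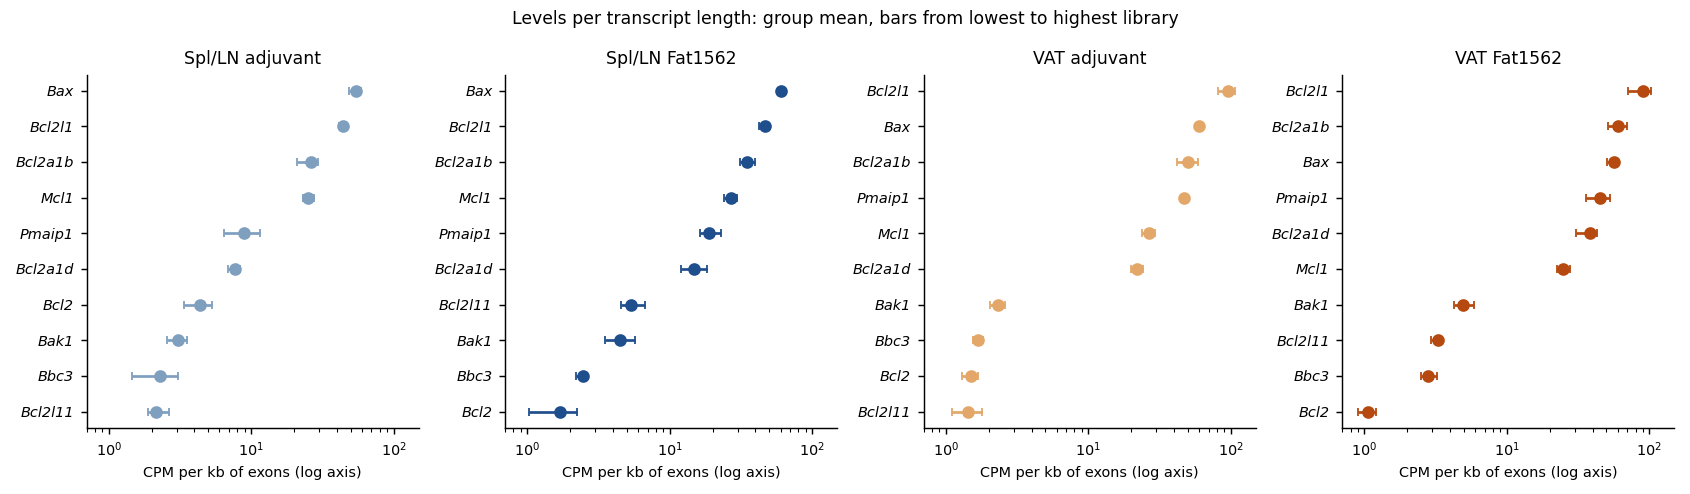
Levels of the 10 members per transcript length (x axis, CPM per kb of exons, log scale), ordered within each group, as the group mean (point) with a bar from the lowest to the highest library. Bcl2l1 leads in VAT and Bax in Spl/LN, and Bcl2 has the lowest mean with adjuvant/Fat1562 in both tissues. In Spl/LN with adjuvant/Fat1562 the range of Bcl2 overlaps that of Bbc3. The places of Bcl2a1b and Bcl2a1d are uncertain, since most of their sequence is shared with other genes.

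Over the 11 libraries, pairs of members were compared by Pearson's r of log2 levels as a description, which mixes tissue and treatment. The highest r were between Bcl2a1b and Bcl2a1d (0.91), which share most of their sequence, and between Bcl2l1 and Bcl2a1b (0.91), and the lowest was between Bcl2 and Bcl2a1d (-0.88). The tested genes most like Bcl2 were Osbpl6 (0.96), Colq (0.95) and Inpp5f (0.94). Those most like Bcl2l11 were Rap1a (0.94), Popdc2 (0.94) and Prpf38b (0.93), and those most like Mcl1 were Kpna4 (0.93), Rab2b (0.89) and Btaf1 (0.89).

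Other genes of the pathway were taken from lists. Of 16 other BCL2 family genes, 11 were tested, and 0 were called between the tissues with adjuvant alone by edgeR, where DESeq2 called 1 and 1 had an unadjusted p under 0.05. With adjuvant/Fat1562, Bid, whose protein links death receptors to mitochondria, was lower in VAT (log2 -0.54, SE 0.13, adjusted p = 0.00923) and Bnip3, a mitophagy receptor gene, was higher (log2 1.24, SE 0.34, adjusted p = 0.0206). Bnip3 rose with the peptide in VAT (log2 1.56, SE 0.41, adjusted p = 0.0249), from 28.7 and 33.6 normalized counts to 55.6 to 140.5, and Bcl2l15 fell with it in Spl/LN (log2 -1.45, SE 0.39, adjusted p = 0.0448). The peptide's effect on Bnip3 differed between the tissues (interaction log2 2.04, SE 0.54, adjusted p = 0.0427). The median log2 fold change of the 11 ran from -0.15 to 0.17 over the 5 comparisons.

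Downstream of the family, 16 of 17 genes of the apoptosome, caspases and their inhibitors were tested. With adjuvant alone 4 were higher in VAT: Apaf1, the apoptosome scaffold (log2 1.11, SE 0.20, adjusted p = 0.000944), Cycs, cytochrome c (0.76, SE 0.23, adjusted p = 0.0293), Casp8 (0.39, SE 0.11, adjusted p = 0.0250) and Birc3 (0.92, SE 0.13, adjusted p = 8.51e-05). For the peptide in Spl/LN, 0 of 16 were called by edgeR or DESeq2, with 1 at an unadjusted p under 0.05. With adjuvant/Fat1562, Apaf1, Birc2 and Birc3 were higher in VAT than in Spl/LN, by 0.86, 0.50 and 0.82 (log2).

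Of 10 death receptor genes, Tnfrsf10b, a TRAIL receptor gene, was the 1 called between the tissues by edgeR (DESeq2 also called 1), higher in VAT by 2.12 (log2, SE 0.28, adjusted p = 3.87e-05) with adjuvant alone and by 1.73 (SE 0.27, adjusted p = 0.000203) with adjuvant/Fat1562. Tnfrsf1b, which encodes TNFR2, was the 1 called for the peptide by edgeR, higher by 0.40 (log2, SE 0.09) in VAT, where DESeq2 called 3 higher, and by 0.44 (SE 0.08) in Spl/LN, where DESeq2 called 1. Of 13 tested genes for p53 and its targets, a group to which Pmaip1, Bbc3 and Bax also belong, Cdkn1a, the cell cycle inhibitor p21, and Perp were higher in VAT with adjuvant alone, and 0 were lower by edgeR (1 by DESeq2, and 3 at an unadjusted p under 0.05). Cdkn1a was at 23.7 to 57.9 normalized counts in Spl/LN and 1298 and 1563 in VAT (log2 5.14, SE 0.25, adjusted p = 1.07e-10). In VAT it fell with the peptide by 0.94 on the log2 scale (SE 0.20, adjusted p = 0.00664), to 607.1 to 839.5. The other 11 genes of the list were not called between the tissues with adjuvant alone. With the peptide in VAT, edgeR called 2 of the 13 lower, Cdkn1a and Sesn1 (log2 -0.66, SE 0.14, adjusted p = 0.00683). It called 1 higher there, Perp (1.21, SE 0.36, adjusted p = 0.0466). In Spl/LN, Perp was the 1 called for the peptide, also higher (1.87, SE 0.36, adjusted p = 0.00615).

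Upstream, 16 genes for cytokine receptors and signals known to act on family members were tested, and 6 rose and 2 fell in VAT with adjuvant alone. Rel, which encodes the NF-κB subunit c-Rel, rose by 1.67 (log2, SE 0.13, adjusted p = 3.59e-08), and Il2ra, the high-affinity interleukin-2 receptor chain and a marker of Treg cells, by 1.88 (SE 0.16, adjusted p = 1.75e-07). Pim1 rose by 1.51 (SE 0.15), Atf4, the stress response factor, by 0.90 (SE 0.12), Il7r by 0.81 (SE 0.14) and Il2rg by 0.49 (SE 0.08), and Stat5b and Pim2 fell by 0.68 (SE 0.16) and 0.93 (SE 0.28). With adjuvant/Fat1562, 7 were higher in VAT and 2 lower, with Rel at 2.16 (log2, SE 0.12). The peptide raised Rel (0.61, SE 0.13) and Il2rb (0.35, SE 0.08) in VAT and lowered Il2rg, Il7r and Pim1, and in Spl/LN it raised Il2rg (0.33, SE 0.07) with no other of the 16 called by edgeR (DESeq2 also called 1 higher and 0 lower). The effect on Il2rg differed between the tissues (interaction log2 -0.68, SE 0.11, adjusted p = 0.00160). Of 7 tested genes for the turnover of MCL1 and BIM, Gsk3b was higher in VAT with adjuvant alone (0.38, SE 0.12) and Dynll1, a light chain gene whose product holds BIM, rose with the peptide in Spl/LN (0.61, SE 0.15, adjusted p = 0.0276).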

How the data were processed

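Counts were deposited by the authors as one table of whole numbers without normalization, for 52997 genes by symbol in 11 Smart-seq2 libraries with paired reads of 38 bases. The submitters' processing notes name STAR 2.5.4, featureCounts and the build mm10, and the paper's methods name Cuffquant. The annotation, the strand setting and the treatment of reads with several matches are not given in the sources used here. No column was left without a sample. Total counts were 4490242 to 6570057, and intervals leave out losses of molecules before PCR.

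Counts were scaled to the mean library total, and the 12932 genes whose mean in any group exceeded 10 were kept. One model of the 4 groups was fitted in R 4.3.3 by edgeR 4.0.16 (quasi-likelihood test, library sizes by TMM, prior count 0.125), with Benjamini-Hochberg adjustment of the p-values over all 12932 genes. Standard errors are the log2 fold change divided by the root of the F statistic. The steps were tested on simulated data. Alternatives were other size factors, limma 3.58.1 after quantile normalization, other filters, DESeq2 1.42.0, only the groups compared, the replicate number as a block and each library left out.

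The members and gene lists were chosen with earlier results of these data known. Of the lists, only genes called in at least 1 comparison are named, and for Bcl2, Bcl2l11 and Mcl1 the 3 genes with the highest correlation of log2(normalized count + 1). Positions and 38-base stretches come from GENCODE vM21 (GRCm38), and promoter windows from RefSeq. Results for some genes of the lists are not reported here.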

Additional observations from a re-analysis of the deposited data

Results flagged for a closer look

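Among the results for the 10 members, Pmaip1 drew attention because the peptide's effect differed between the tissues by a test of that difference. In Spl/LN its normalized counts rose from 94.0 to 168.8 with adjuvant alone to 239.3 to 336.6 with adjuvant/Fat1562, and in VAT they were 657.4 and 705.9 and then 523.0 to 772.0. The interaction was -1.13 on the log2 scale (SE 0.29, adjusted p = 0.0365 by edgeR). The level in VAT was already above that reached in Spl/LN with the peptide. No group was tested for a library that stands apart, since the groups hold 2 or 3 libraries.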

How the results depend on the processing

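Of 16 calls of a member in a comparison, 10 kept direction and call under every alternative and 6 lost the call under at least 1. Of 34 member results not called, 2 were called under 1 alternative and 10 changed sign. With each library left out in turn, members called numbered 4 to 5 and 3 to 5 between the tissues (adjuvant alone, then adjuvant/Fat1562), 0 to 1 and 3 to 4 for the peptide (VAT, then Spl/LN) and 0 to 1 in the interaction. Over all genes, calls were 2102, 1938, 1073, 515 and 481 in these comparisons and fell to as few as 1259, 1289, 508, 190 and 240 with 1 library left out, and for the peptide in Spl/LN there were 793 without a filter and with DESeq2, which called 783 in the interaction. A fit to only the groups compared called 2 members for the peptide in VAT.

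Deviations from the group means correlated at -0.04 to 0.06 in the 15 same-numbered pairs of libraries, with 0 above 0.1. In the 30 differently numbered pairs they correlated at -0.06 to 0.04. A shared mouse is possible only for a Spl/LN and a VAT library of the same treatment. Such same-numbered pairs were at 0.037 and 0.030 with adjuvant alone and at 0.055, 0.030 and 0.030 with adjuvant/Fat1562. These values do not settle whether the numbers mark a shared mouse. With the replicate block, 0 members were called in the interaction and the effect of the peptide on Pmaip1 in VAT was 0.017.

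The sign changes concern values near 0 and, beside that of Pmaip1 under the block, came with a library left out. The log2 ranges were -0.092 to 0.21 for Mcl1 between tissues with adjuvant alone and -0.020 to 0.36 for Bak1 with adjuvant/Fat1562. For the peptide they were -0.27 to 0.13 for Bcl2l1, -0.24 to 0.065 for Mcl1 and -0.20 to 0.078 for Pmaip1 in VAT, and -0.13 to 0.36 for Bbc3 in Spl/LN. In the interaction they were -0.35 to 0.050 for Bcl2l1, -0.42 to 0.25 for Bcl2l11, -0.37 to 0.12 for Bcl2a1b and -0.30 to 0.030 for Bcl2a1d. Leaving out a VAT library with adjuvant alone leaves 1, assumed to vary like the other groups. The cause of the changes was not tested. Bbc3, with under 40 normalized counts in every library, gives the widest intervals of the 10 members.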
